A study of Mus musculus with 7 samples.

Results

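Chromatin accessibility was examined at 5 mouse genes that set whether a T cell leaves a tissue or enters a lymph node, namely S1pr1, Ccr7, Klf2, Foxo1 and Cd69. They were taken from the ATAC-seq table of merged peak regions, and a region was assigned to a gene when it overlapped the gene body or the 10 kb on either side of it. This gave 85 of the 113820 regions, with 10 at S1pr1, 12 at Ccr7, 9 at Klf2, 44 at Foxo1 and 10 at Cd69. The rule that assigned regions to genes used no measured value. A mean density of 5 normalized insertions per kilobase in at least 1 population was reached by 35 of the 85 regions and by 66252 of all 113820.

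T cells leave lymph nodes and other tissues by following sphingosine 1-phosphate, which is abundant in blood and lymph, through the receptor S1PR1, and they enter lymph nodes through CCR7, the receptor for the chemokines CCL19 and CCL21. KLF2 is a zinc finger factor that activates transcription of S1pr1, and FOXO1 is a forkhead factor that activates Klf2, Ccr7 and Il7r and is shut out of the nucleus after T cell activation. CD69 is an early activation antigen that binds S1PR1 and takes it off the cell surface, so that it acts against egress, and it is also widely used as a marker of T cells that reside in tissues.

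The 7 libraries were each made from 50000 sorted CD4+ T cells of C57BL/6 reporter mice, 8 days after subcutaneous infection with 500 L3 larvae of the helminth Nippostrongylus brasiliensis. IL-4+ LN cells (n = 2) were GFP+ cells of IL-4-4get mice, taken from the mediastinal lymph nodes, IL-4+ lung cells (n = 3) were GFP+ cells from the lungs of mice with the same reporter, and IFNγ+ lung cells (n = 2) were YFP+ cells from the lungs of IFN-gamma-Great mice. All 3 populations therefore came from infected reporter mice, the cytokine reporter differed between the IL-4+ and the IFNγ+ cells, and both reporters mark transcription of the cytokine gene and not secretion. By the study's description the replicates were mice of a single experiment. The p-values therefore measure the spread between mice within it together with that between their libraries. All populations were sorted as CD3ε+ and CD4+ and as negative for CD8, B220, NK1.1 and myeloid markers.

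The values were log2 densities, that is log2 of transposase insertions per kilobase after normalization between libraries. Sorted values nearly coincided between the libraries, as after quantile normalization, a step not given in the sources used here. Insertion counts rebuilt from tied values put the depth between 14005923 and 91681969 insertions per library as lower bounds. By the interquartile range of log2 rebuilt counts over regions, IL-4+ LN replicate 1 and IL-4+ lung replicates 2 and 3 had a narrow spread (between 1.65 and 1.74), and the other 4 libraries, among them both of IFNγ+ lung cells, had a wide one (between 2.89 and 3.07). As a check of the cell type, the promoters of Cd3e, Cd4, Cd3g, Lck and Cd28 held a region in the table with log2 densities of between 3.01 and 4.80. Of 12 marker genes of B, myeloid, cytotoxic and epithelial cells, 8 had no promoter region, among them Ms4a1, Csf1r, Cd8a and Sftpc. The promoter regions of Cd14, Cd8b1 and Epcam lay between 1.56 and 3.64 over the libraries. Although the sort took B220- cells, the promoter region of the B cell gene Pax5 stood at 5.14 and 5.22 in IL-4+ LN cells, at 4.45, 3.61 and 2.95 in IL-4+ lung cells, and at 4.05 and 4.37 in IFNγ+ lung cells. In such bulk libraries, fewer cells with an open region and less opening per cell cannot be told apart.

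Of the 85 regions, the sequences given here are of the called region and of 3 others. They are the middle 300 bases, on the plus strand of GRCm38, of the region that was called different and, chosen after their values were seen, of 3 regions with the lowest p-value of their gene outside that call. The first lies just beyond the 3′ end of Cd69, inside a region that reaches into the last exons of the gene, at chr6:129266639-129266938. The second lies upstream of Cd69 at chr6:129282838-129283137, the third upstream of S1pr1 at chr3:115721298-115721597, and the fourth in an intron of Ccr7 at chr11:99150062-99150361. Capitals mark matches to the motif letters searched on both strands, which were TGTTTAC for FOXO, GGGTGTG for KLF, AGATAA for GATA factors, AGGTGTG for T-box factors, AACCACA for Runx, TGANTCA for bZIP, TGGAAAA for NFAT, ATCAAAG for Tcf7 and AGGAAGT for ETS factors.
Cd69 3′ region: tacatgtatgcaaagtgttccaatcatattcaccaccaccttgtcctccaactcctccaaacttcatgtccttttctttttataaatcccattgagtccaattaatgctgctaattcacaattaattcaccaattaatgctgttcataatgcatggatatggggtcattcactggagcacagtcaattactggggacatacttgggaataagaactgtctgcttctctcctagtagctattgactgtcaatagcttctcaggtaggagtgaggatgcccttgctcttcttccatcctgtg
Cd69 upstream region: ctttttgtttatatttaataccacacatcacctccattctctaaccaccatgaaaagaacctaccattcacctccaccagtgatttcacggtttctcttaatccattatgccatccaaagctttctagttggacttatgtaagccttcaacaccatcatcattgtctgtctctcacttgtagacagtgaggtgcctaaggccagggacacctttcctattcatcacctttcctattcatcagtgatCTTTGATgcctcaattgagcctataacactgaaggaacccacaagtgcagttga
S1pr1 upstream region: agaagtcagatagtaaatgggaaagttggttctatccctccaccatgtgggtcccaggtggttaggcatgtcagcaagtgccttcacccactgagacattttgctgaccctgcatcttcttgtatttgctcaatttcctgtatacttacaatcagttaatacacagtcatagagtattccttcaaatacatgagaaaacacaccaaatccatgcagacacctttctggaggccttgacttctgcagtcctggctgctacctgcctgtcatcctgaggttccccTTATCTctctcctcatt
Ccr7 intronic region: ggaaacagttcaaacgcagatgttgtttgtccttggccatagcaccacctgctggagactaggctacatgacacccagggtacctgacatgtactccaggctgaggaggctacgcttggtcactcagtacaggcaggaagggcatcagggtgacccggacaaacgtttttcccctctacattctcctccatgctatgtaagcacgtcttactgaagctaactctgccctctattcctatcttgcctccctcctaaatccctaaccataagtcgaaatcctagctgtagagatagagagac

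The upstream region of Cd69 held 1 match, to the reverse complement of the Tcf7 letters, which 5.5% of all regions held in their middle 300 bases. The upstream region of S1pr1 held 1 match to the reverse complement of the GATA letters, which were found in 15.2% of all regions. The other 2 windows held none of these letters. Windows of the regions with the lowest p-value at Klf2, at chr8:72331026-72331325, and at Foxo1, at chr3:52340472-52340771, were searched as well. They held 0 matches and are not printed.

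The comparison of the IL-4+ cells of lung with those of LN set the tissues against each other in cells with the same reporter. By the study's methods, lungs were digested with enzymes and lymph nodes were dissociated mechanically. The study also describes the IL-4+ cells as mostly T follicular helper cells in the lymph nodes and Th2 cells in the lung. Tissue, preparation and cell subset therefore cannot be told apart where lung and LN cells are compared. A region was called when limma's moderated test over all regions gave a Benjamini-Hochberg adjusted p below 0.05 and the fold change was at least 3. By this rule 1 of the 85 regions was called, the 3′ region of Cd69, which was higher in IL-4+ lung cells. That is 1.18% of the 85, against 1.74% of all regions. Neither the receptor genes S1pr1 and Ccr7 nor the factor genes Klf2 and Foxo1 held a called region. At an unadjusted p below 0.05, limma gave 9 of the 85 regions, or 10.6%, against 16.2% of all regions. Without overlap between the libraries of lung and LN were 17 of the 85 regions, or 20.0%, against 27.9% of all regions.

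IL-4+ lung and IFNγ+ lung cells shared the tissue and differed in the reporter. None of the 85 regions was called between them, and 0.496% of all regions were. At an unadjusted p below 0.05, limma gave 14 of the 85 regions, or 16.5%, of which 8 lay at Ccr7, against 14.8% of all regions. Libraries did not overlap at 31 of the 85 regions, or 36.5%, against 40.6% of all regions.

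IFNγ+ lung and IL-4+ LN cells differed in both tissue and reporter, and this comparison shares its libraries with both others. No region of the 5 genes was called, against 3.03% of all regions. An unadjusted p below 0.05 in limma was seen at 8 regions, or 9.41%, against 18.5% of all regions, and libraries did not overlap at 43 regions, or 50.6%, against 53.7%. With the 5 genes counted together, the shares of regions that differed were thus near or below those of all regions in each comparison.

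**Figure D1:**
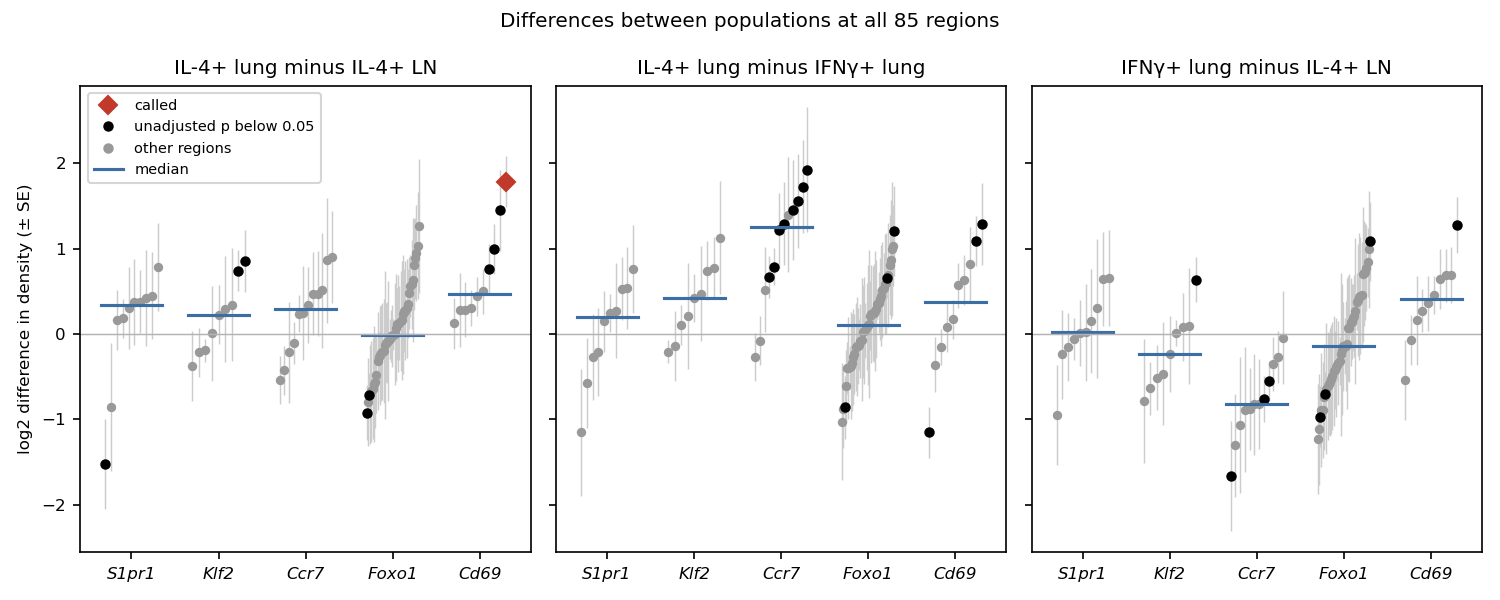
Log2 difference in density (vertical axis, ± SE from limma) of all 85 regions, grouped by gene, for the 3 comparisons. The red diamond is the 1 called region, at Cd69 and at 1.78; black points have an unadjusted p below 0.05, and blue lines are medians, and that of Ccr7 stands at 1.25 between IL-4+ and IFNγ+ lung cells.

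Summed over each locus, the signal of the 5 genes was compared as normalized insertions in the regions of the gene and its flanks, a quantity that depends on the length of the window and is read within a gene only. A fit of this sum in limma over all 31498 genes with a region called none of the 5 loci in any comparison at an adjusted p below 0.05, while 1.8% of all loci were called between IL-4+ lung and LN cells, 0.276% between IL-4+ and IFNγ+ lung cells and 3.62% between IFNγ+ lung and IL-4+ LN cells. At an unadjusted p below 0.05, the same fit gave Cd69 in the first comparison and Ccr7 in the other 2. Of all 31498 loci, 4916, 4971 and 5826 passed this threshold in the 3 comparisons, in the same order. Exact permutation tests over libraries could not go below 0.1 for 3 against 2 libraries and 0.3333 for 2 against 2.

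**Figure D2:**
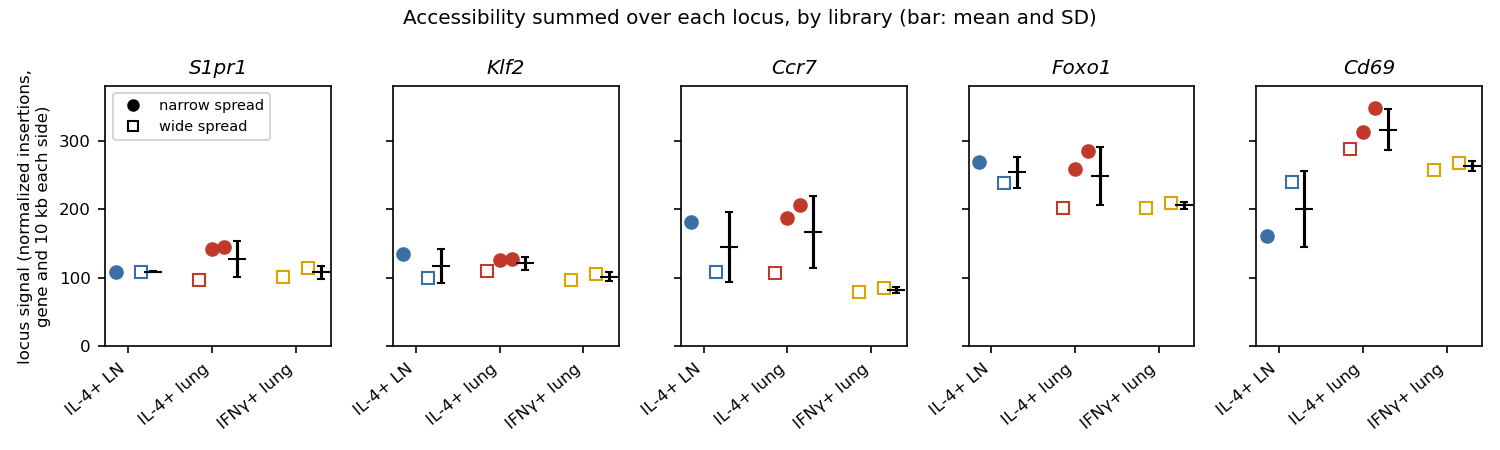
Locus signal (vertical axis, normalized insertions summed over the regions of a gene and 10 kb on each side) in each library, with the mean and SD per population beside the points. Filled circles are libraries with a narrow and open squares libraries with a wide spread of counts. At Ccr7, Klf2 and Foxo1 every circle lies above every square, and at Cd69 the 3 IL-4+ lung libraries lie above all others.

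S1pr1 encodes the egress receptor itself. Its locus signal was 108 and 109 in IL-4+ LN cells, 97.2, 142 and 144 in IL-4+ lung cells, and 101 and 114 in IFNγ+ lung cells. The populations overlapped, with IL-4+ lung replicate 1 the lowest of all 7 libraries and its replicates 2 and 3 the highest. Means were 109 ± 0.717 (SD, n = 2) in IL-4+ LN, 128 ± 26.5 (SD, n = 3) in IL-4+ lung and 108 ± 9.54 (SD, n = 2) in IFNγ+ lung cells, and the exact two-sided permutation p between IL-4+ lung and LN cells was 0.4.

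The region that covers the S1pr1 promoter and coding exon, at chr3:115710571-115716317, was open to a like extent in all libraries, with log2 densities of 3.67 and 3.88 in IL-4+ LN, 3.68, 4.11 and 4.09 in IL-4+ lung, and 3.63 and 3.81 in IFNγ+ lung cells. It stood above 86.6% of all regions in its mean over the libraries. Its differences were between -0.06 and 0.24 on the log2 scale, and limma's adjusted p was at least 0.608.

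The region upstream of S1pr1 whose sequence is given above, at chr3:115721247-115721647, went the other way. Its log2 density was 1.78 and 1.89 in IL-4+ LN cells, 0.12, 0.35 and 0.48 in IL-4+ lung cells, and 1.18 and 0.59 in IFNγ+ lung cells. Every LN library was above every lung library, and every IFNγ+ lung library was above every IL-4+ lung one. The difference between IL-4+ lung and LN cells was -1.52 ± 0.53 (SE), and at an adjusted p of 0.177 in limma it was not called. It was -1.37 between the libraries of narrow spread and -1.77 between those of wide spread. The region is short and held between 9 and 72 rebuilt insertions per library. The other 9 regions at S1pr1 had no unadjusted p below 0.05 in any comparison, and the lowest adjusted p between IL-4+ and IFNγ+ lung cells was 0.47, at a region downstream of the gene where IL-4+ lung replicate 2 alone lay below 0. The long non-coding RNA gene Gm9889 shares the window of S1pr1.

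Ccr7 encodes the lymph node homing receptor. Its locus signal was 181 and 109 in IL-4+ LN cells, 107, 187 and 206 in IL-4+ lung cells, and 78.7 and 85.1 in IFNγ+ lung cells. Both IFNγ+ lung libraries were below all IL-4+ libraries of either tissue, while the IL-4+ lung and LN libraries overlapped. Means were 145 ± 51.2 (SD, n = 2) in IL-4+ LN, 167 ± 52.7 (SD, n = 3) in IL-4+ lung and 81.9 ± 4.47 (SD, n = 2) in IFNγ+ lung cells. IL-4+ lung cells thus exceeded IFNγ+ lung cells by 0.97 ± 0.30 (SE) on the log2 scale, or 1.96-fold, with an adjusted p of 0.233 in the limma fit over genes and an exact two-sided permutation p of 0.2. IL-4+ LN cells exceeded IFNγ+ lung cells 1.72-fold, with an adjusted p of 0.259 in limma. IL-4+ lung cells differed from IL-4+ LN cells by 0.19 on the log2 scale, with an adjusted p of 0.83.

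The signal at Ccr7 moved with the spread of the libraries as well, as did those at Klf2 and Foxo1. At Ccr7 the 3 libraries of narrow spread gave 181, 187 and 206, and the 4 libraries of wide spread gave between 78.7 and 109. Among libraries of wide spread alone, IL-4+ lung replicate 1 exceeded the IFNγ+ lung libraries by 0.38 and IL-4+ LN replicate 2 exceeded them by 0.41 on the log2 scale, which is less than the differences over all libraries. No IFNγ+ lung library had a narrow spread. With the spread class as a covariate, limma called the Ccr7 locus higher in IL-4+ lung than in IFNγ+ lung cells, by 0.43 ± 0.10 (SE) with an adjusted p of 0.0358, and lower in IFNγ+ lung than in IL-4+ LN cells, by 0.37 ± 0.10 (SE) on the log2 scale with an adjusted p of 0.0273. This covariate also raised the calls over all loci, to 4.15% in the first and 14.2% in the second of these comparisons.

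Region by region, 10 of the 12 at Ccr7 were higher in IL-4+ lung than in IFNγ+ lung cells, and the libraries did not overlap at 9, all of them higher in IL-4+ lung cells, where 40.6% of all regions did not overlap. The median difference over the 12 regions was 1.25 on the log2 scale, beside -0.01 over all regions, and 8 of 12 had an unadjusted p below 0.05 in limma, against 14.8% of all regions, with none called. With weights per library estimated from the data, limma called 4 of the 12 higher in IL-4+ lung cells, and it then called 5.76% of all regions. In the comparison of IFNγ+ lung with IL-4+ LN cells all 12 were lower in IFNγ+ lung cells, the median difference was -0.82 beside -0.03 over all regions, 9 did not overlap (53.7% of all regions) and 3 had an unadjusted p below 0.05 (18.5% of all regions). Between IL-4+ lung and LN cells the median was 0.29 and none of the 12 had an unadjusted p below 0.05.

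The lowest p-value at Ccr7 came from the intronic region whose sequence is given above, at chr11:99149534-99150889. Its log2 density was 4.02 and 3.76 in IL-4+ LN cells, 3.96, 4.13 and 4.29 in IL-4+ lung cells, and 3.30 and 3.38 in IFNγ+ lung cells. The 5 IL-4+ libraries were all above both IFNγ+ lung libraries. IL-4+ lung cells were 0.79 ± 0.21 (SE) higher than IFNγ+ lung cells, with an adjusted p of 0.144 in limma, and the difference was 0.62 within the libraries of wide spread.

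The Ccr7 promoter region, at chr11:99153854-99155507, showed the same order. It stood at 4.40 and 4.28 in IL-4+ LN, at 3.84, 4.24 and 4.64 in IL-4+ lung, and at 3.52 and 3.64 in IFNγ+ lung cells. The IFNγ+ lung libraries were again the lowest. Their difference from IL-4+ LN cells was -0.76 ± 0.27 (SE) with an adjusted p of 0.158 in limma, the lowest at Ccr7 in that comparison, and the difference between IL-4+ and IFNγ+ lung cells was 0.66 ± 0.25 (SE) with an adjusted p of 0.267. Within the libraries of wide spread these differences were -0.70 and 0.27. Between IL-4+ lung and LN cells the lowest p-value of the gene was found upstream, at chr11:99162870-99163427, where the difference was -0.54 ± 0.28 (SE) with an adjusted p of 0.395. That region stood at 4.15 and 3.84 in IL-4+ LN, at 3.06, 3.42 and 3.90 in IL-4+ lung, and at 3.53 and 3.92 in IFNγ+ lung cells, so that the populations overlapped.

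**Figure D3:**
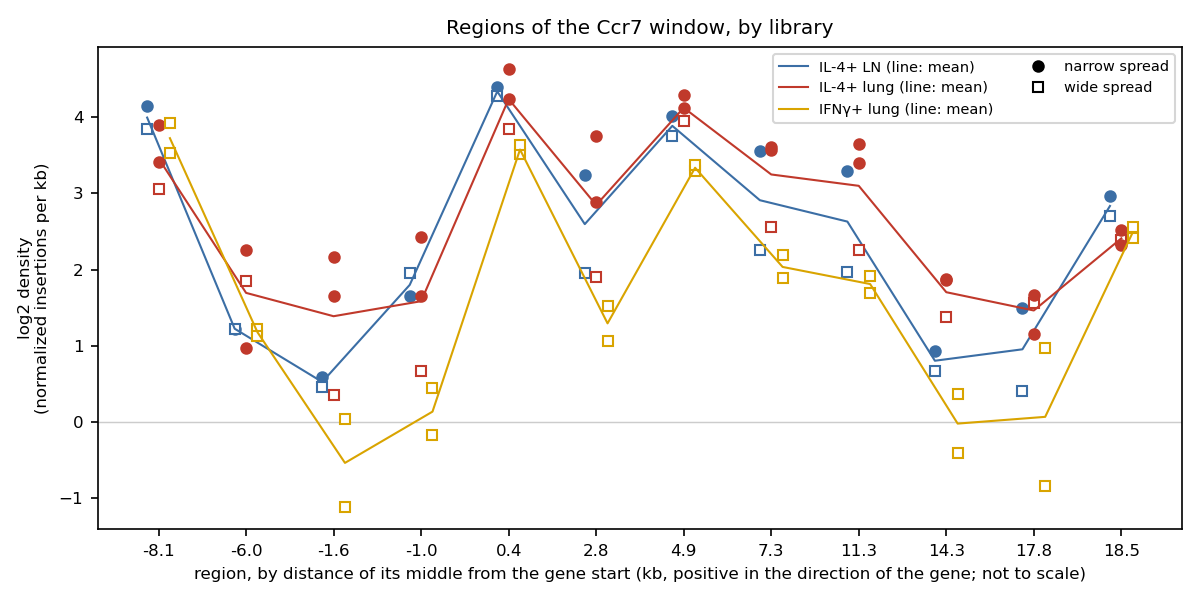
Log2 density (vertical axis, normalized insertions per kilobase) of the 12 regions of the Ccr7 window in each library, ordered along the horizontal axis by the distance of their middle from the gene start in kilobases, with lines through population means. The IFNγ+ lung points lie lowest from the promoter through the gene body, and open squares, the libraries of wide spread, lie mostly below filled circles there.

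Klf2 encodes the factor that drives S1pr1. Its locus signal was 135 and 100.1 in IL-4+ LN cells, 110, 126 and 128 in IL-4+ lung cells, and 97.3 and 106 in IFNγ+ lung cells. The IFNγ+ lung libraries were below all IL-4+ lung ones, and IL-4+ LN cells spanned both. Every library of narrow spread was above every one of wide spread. Means were 118 ± 24.9 (SD, n = 2), 121 ± 9.78 (SD, n = 3) and 102 ± 6.25 (SD, n = 2) in IL-4+ LN, IL-4+ and IFNγ+ lung cells. The largest of the 3 differences, between IL-4+ and IFNγ+ lung cells, was 0.25 ± 0.15 (SE) on the log2 scale with an adjusted p of 0.399 in the limma fit over genes. It was 0.11 among libraries of wide spread, with 1 library of IL-4+ lung cells. With the spread class as a covariate it was 0.05 ± 0.10 (SE), with an adjusted p of 0.892 in limma.

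The promoter region of Klf2, at chr8:72318753-72319213, had the highest mean log2 density of the 85 regions and stood above 99.2% of all regions. It was open in each population, with 6.61 and 6.50 in IL-4+ LN, 6.49, 6.34 and 6.25 in IL-4+ lung, and 6.52 and 6.61 in IFNγ+ lung cells. Its differences were between -0.21 and 0.01 on the log2 scale, with adjusted p-values of between 0.482 and 0.973 in limma.

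The only Klf2 region with an unadjusted p below 0.05 in more than 1 comparison lay downstream of the gene, at chr8:72330831-72331520. It stood at 3.54 and 4.08 in IL-4+ LN, at 4.89, 4.39 and 4.37 in IL-4+ lung, and at 4.47 and 4.42 in IFNγ+ lung cells. All lung libraries were above both LN libraries. The difference was 0.74 ± 0.24 (SE) between IL-4+ lung and LN cells and 0.64 ± 0.26 (SE) between IFNγ+ lung and IL-4+ LN cells, with adjusted p-values of 0.143 and 0.224 in limma. Between IL-4+ and IFNγ+ lung cells the lowest p-value was that of the region from the last exon onwards, at chr8:72321201-72325015, with a difference of 0.74 ± 0.35 (SE) and an adjusted p of 0.351. It stood at 3.30 and 2.55 in IL-4+ LN, at 2.65, 3.35 and 3.47 in IL-4+ lung and at 2.26 and 2.57 in IFNγ+ lung cells, and the 3 libraries of narrow spread were the 3 highest.

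Foxo1 encodes the factor upstream of Klf2 and Ccr7. Its locus signal over 44 regions was 270 and 238 in IL-4+ LN cells, 201, 259 and 285 in IL-4+ lung cells, and 202 and 209 in IFNγ+ lung cells. IFNγ+ lung cells were below IL-4+ LN cells without overlap, and IL-4+ lung replicate 1 was the lowest of all. Every library of narrow spread was above every one of wide spread. Means were 254 ± 22.6 (SD, n = 2), 248 ± 42.7 (SD, n = 3) and 206 ± 4.91 (SD, n = 2), and the largest difference, between IFNγ+ lung and IL-4+ LN cells, was -0.30 ± 0.17 (SE) on the log2 scale with an adjusted p of 0.393 in the limma fit over genes. With the spread class as a covariate, this difference was -0.14 ± 0.10 (SE), with an adjusted p of 0.401 in limma. That between IL-4+ and IFNγ+ lung cells was 0.26 without and 0.04 with the covariate. The transcripts Gm20402, annotated as antisense, and Gm38034 share the window.

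The Foxo1 promoter region, at chr3:52267270-52271840, stood at 4.59 and 4.49 in IL-4+ LN, at 4.42, 4.55 and 4.64 in IL-4+ lung, and at 4.20 and 4.17 in IFNγ+ lung cells. Both IFNγ+ lung libraries were the lowest, and the differences from IL-4+ lung and IL-4+ LN cells were 0.35 and -0.36 on the log2 scale, with adjusted p-values of 0.381 and 0.364 in limma. The median difference over the 44 regions was -0.02 between IL-4+ lung and LN, 0.11 between IL-4+ and IFNγ+ lung and -0.14 between IFNγ+ lung and IL-4+ LN cells.

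In each comparison the lowest p-value at Foxo1 belonged to an intronic region. Between IL-4+ lung and LN cells an upstream region at chr3:52262392-52262957 came next, with a difference of -0.71 ± 0.26 (SE) and an adjusted p of 0.19 in limma. At chr3:52340197-52341046 the log2 density was 3.09 and 3.29 in IL-4+ LN cells, 1.84, 2.40 and 2.55 in IL-4+ lung cells, and 2.24 and 2.21 in IFNγ+ lung cells. All lung libraries were below both LN libraries. IL-4+ lung cells differed from IL-4+ LN cells by -0.92 ± 0.32 (SE), with an adjusted p of 0.178 in limma, and IFNγ+ lung cells by -0.97 ± 0.35 (SE), with an adjusted p of 0.172. At chr3:52297231-52299962 the IFNγ+ lung libraries were lower, with 2.88 and 2.97 against 3.73 and 3.53 in IL-4+ LN and 3.35, 3.68 and 3.70 in IL-4+ lung cells. The differences of 0.65 ± 0.23 (SE) between IL-4+ and IFNγ+ lung cells and -0.71 ± 0.26 (SE) between IFNγ+ lung and IL-4+ LN cells had adjusted p-values of 0.256 and 0.171 in limma.

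Cd69 encodes the antagonist of S1PR1, and 9 of its 10 regions reached a mean density of 5 normalized insertions per kilobase in at least 1 population, against 2 of 10 at S1pr1, 5 of 9 at Klf2, 7 of 12 at Ccr7 and 12 of 44 at Foxo1. The median over its 10 regions of the mean log2 density was 3.32, beside 2.00 over all regions. The locus signal was 161 and 240 in IL-4+ LN cells, 287, 313 and 348 in IL-4+ lung cells, and 257 and 268 in IFNγ+ lung cells. The 3 populations did not overlap, with IL-4+ LN cells the lowest and IL-4+ lung cells the highest. Means were 201 ± 55.4 (SD, n = 2) in IL-4+ LN, 316 ± 30.3 (SD, n = 3) in IL-4+ lung and 263 ± 7.37 (SD, n = 2) in IFNγ+ lung cells.

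IL-4+ lung cells exceeded IL-4+ LN cells at the Cd69 locus 1.60-fold, by 0.68 ± 0.17 (SE) on the log2 scale, with an exact two-sided permutation p of 0.1, the smallest that these numbers of libraries allow. In the limma fit over genes the adjusted p was 0.0994, so that the locus was not called. Without IL-4+ LN replicate 1, the lower of the LN libraries, the difference was 0.40 with an adjusted p of 0.147, and without IL-4+ LN replicate 2 it was 0.97 with an adjusted p of 0.0170, in a fit that called 2.8% of all loci. With the spread class as a covariate it was 0.70 ± 0.13 (SE) with an adjusted p of 0.00477, in a fit that called 16.9% of all loci. It was 1.03 between libraries of narrow and 0.26 between libraries of wide spread. IFNγ+ lung cells exceeded IL-4+ LN cells by 0.42 on the log2 scale with an adjusted p of 0.29, and this difference was 0.13 without IL-4+ LN replicate 1 and 0.70 without IL-4+ LN replicate 2, where the locus was called by limma along with 21.0% of all loci.

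The called region covered the 3′ end of Cd69 and sequence beyond it, at chr6:129264674-129268902. Its log2 density was 1.93 and 2.15 in IL-4+ LN cells, 3.38, 3.91 and 4.16 in IL-4+ lung cells, and 2.65 and 2.81 in IFNγ+ lung cells. The populations did not overlap, and IFNγ+ lung cells lay between the other 2. IL-4+ lung cells exceeded IL-4+ LN cells by 1.78 ± 0.30 (SE), or 3.44-fold, with an adjusted p of 0.0132 in limma. The difference was 2.11 between the libraries of narrow spread and 1.24 between those of wide spread, and each library held between 374 and 3390 rebuilt insertions in the region.

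The call of the Cd69 3′ region held under 14 of 21 alternative settings. Among the 14 were a minimum fold change of 2 and no minimum, which left the fit unchanged and could not lose the call. A block for the replicate number, alone or with a GC correction, lost the call, in fits that called 0 of all regions in this comparison. The call was also lost without IL-4+ lung replicate 2, at an adjusted p of 0.0833 in limma, and without IL-4+ lung replicate 3, at 0.0504. It was also lost where the fold change fell below 3 at an adjusted p under 0.05, as with voom on the rebuilt counts, where the difference was 1.55. IL-4+ lung cells exceeded IFNγ+ lung cells at this region by 1.09 ± 0.30 (SE) with an adjusted p of 0.144 in limma, and IFNγ+ lung cells exceeded IL-4+ LN cells by 0.69 ± 0.32 (SE) with an adjusted p of 0.287. Neither was called. IL-4+ LN cells, the population with the lowest density here, had the highest density at the Pax5 promoter, and the part of this in the result was not tested.

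All 10 regions at Cd69 had a positive difference between IL-4+ lung and LN cells. The median was 0.47 on the log2 scale, beside -0.03 over all regions. Between libraries of narrow spread the differences were from 0.13 to 2.11. Between those of wide spread, with 1 library each, they were from -0.42 to 1.24, and those of -0.05, -0.08 and -0.42 were negative. An unadjusted p below 0.05 in limma was seen at 4 of the 10 regions, against 16.2% of all regions. Apart from the called region these, named after their values were seen, were its neighbour within the gene at chr6:129268933-129270808, a region further downstream at chr6:129259803-129261371 and the promoter. The neighbour stood at 1.58 and 1.04 in IL-4+ LN, at 1.96, 2.90 and 3.43 in IL-4+ lung, and at 1.23 and 1.71 in IFNγ+ lung cells. All IL-4+ lung libraries were above the others, and the difference from IL-4+ LN cells was 1.45 ± 0.47 (SE) with an adjusted p of 0.15. The region further downstream stood at 1.86 and 2.12 in IL-4+ LN and at 2.43 and 2.27 in IFNγ+ lung cells. In IL-4+ lung cells it stood at 2.82, 2.99 and 3.14, so that the populations did not overlap, as at the called region.

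The Cd69 promoter region, at chr6:129275180-129275680, was among the most open of the table and stood above 99.0% of all regions. Its log2 density was 5.21 and 6.43 in IL-4+ LN, 6.83, 6.42 and 6.50 in IL-4+ lung, and 6.50 and 6.51 in IFNγ+ lung cells. IL-4+ LN replicate 1 lay apart from the other 6 libraries, which were between 6.42 and 6.83. The difference between IL-4+ lung and LN cells of 0.76 ± 0.29 (SE) had an adjusted p of 0.216 in limma.

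Upstream of Cd69, the region whose sequence is given above, at chr6:129282256-129283718, had another order. It stood at 2.33 and 2.53 in IL-4+ LN, at 2.11, 2.83 and 2.74 in IL-4+ lung, and at 3.76 and 3.65 in IFNγ+ lung cells. Both IFNγ+ lung libraries were above all 5 IL-4+ libraries, which overlapped between the tissues. IFNγ+ lung cells exceeded IL-4+ LN cells by 1.28 ± 0.33 (SE) with an adjusted p of 0.0605 in limma. IL-4+ lung cells differed from IFNγ+ lung cells by -1.15 ± 0.30 (SE) with an adjusted p of 0.133. Within libraries of wide spread these differences were 1.17 and -1.60. Its neighbour further upstream, also named after its values were seen, at chr6:129283753-129284824, was open in all populations, with 5.33 and 6.07 in IL-4+ LN, 6.13, 5.98 and 5.89 in IL-4+ lung, and 6.12 and 6.18 in IFNγ+ lung cells.

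**Figure D4:**
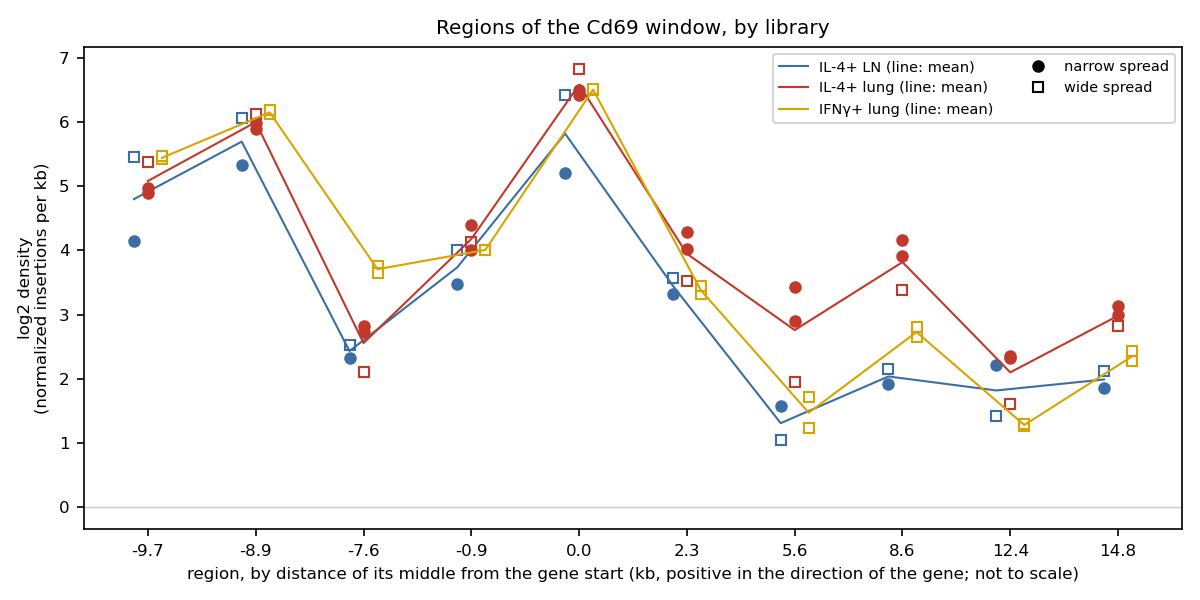
Log2 density (vertical axis, normalized insertions per kilobase) of the 10 regions of the Cd69 window in each library, ordered along the horizontal axis by the distance of their middle from the gene start in kilobases, with lines through population means. The called region is the one at 8.6 kb. The 3 populations separate there and, in the same order, at 14.8 kb. The region at -7.6 kb is the one where IFNγ+ lung cells at 3.76 and 3.65 stand above all IL-4+ libraries.

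The promoter regions differ much in length, with 461 bp at Klf2, 501 bp at Cd69, 1654 bp at Ccr7, 4571 bp at Foxo1 and 5747 bp at S1pr1. In the mean over libraries the order was Klf2 with 6.47, Cd69 with 6.34, Foxo1 with 4.44, Ccr7 with 4.08 and S1pr1 with 3.84 on the log2 scale. The ranges over the libraries overlapped between Klf2 and Cd69, between Foxo1 and Ccr7 and between Ccr7 and S1pr1, and did not overlap between Cd69 and Foxo1. The shortest regions stood highest and the longest lowest, so that length and gene cannot be told apart in this order.

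Another 11 genes of the same pathway were examined as a list, with 264 regions. They were the sphingosine 1-phosphate receptor genes S1pr4 and S1pr5, the chemoattractant receptor genes Gpr183 and Cxcr4, the cytokine receptor gene Il7r, the factor genes Foxo3, Foxp1, Klf3 and Klf6, the receptor kinase gene Grk2 and the selectin ligand gene Selplg. Between IL-4+ lung and LN cells 3 of the 264 regions were called higher and 1 lower in the lung, together 1.52% against 1.74% of all regions. Between IL-4+ and IFNγ+ lung cells none was called, against 0.496%. Between IFNγ+ lung and IL-4+ LN cells 5 were called higher and 2 lower in IFNγ+ lung cells, together 2.65% against 3.03% of all regions. The median locus difference over the list was 0.02 on the log2 scale between IL-4+ lung and LN cells, beside -0.09 over all genes.

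Among these genes, a region upstream of S1pr4, which encodes a lymphocyte receptor for the same lipid, stood at 4.35 and 5.15 in IL-4+ LN, at 6.49, 6.60 and 6.60 in IL-4+ lung, and at 6.56 and 6.71 in IFNγ+ lung cells. All lung libraries were above both LN libraries, and the differences of 1.81 and 1.88 had adjusted p-values of 0.004 and 0.0032 in limma. The window of S1pr4 also holds Ncln and Gna15. An intronic region of Il7r, which encodes the IL-7 receptor and is a FOXO1 target, stood at 1.07 and 2.07 in IL-4+ LN, at 3.40, 3.57 and 3.70 in IL-4+ lung, and at 2.55 and 3.23 in IFNγ+ lung cells. It was called between IL-4+ lung and LN cells with a difference of 1.98 and an adjusted p of 0.0185.

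At Gpr183, which encodes a receptor for oxysterols that positions cells in lymphoid tissue, an upstream region stood at 3.71 and 3.45 in IL-4+ LN, at 1.76, 2.36 and 2.64 in IL-4+ lung, and at 0.69 and 0.97 in IFNγ+ lung cells. Its difference of -2.75 between IFNγ+ lung and IL-4+ LN cells had an adjusted p of 0.00586. The window of Gpr183 also holds Ubac2. At Foxp1, a forkhead factor gene with 149 regions, 4 regions were called higher and 1 lower in IFNγ+ lung than in IL-4+ LN cells, and 1 in each direction between IL-4+ lung and LN cells.

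As whole loci, 2 of the 11 genes were called, both higher in IL-4+ cells of lung than of LN, where 1.8% of all loci were called. None was called between IL-4+ and IFNγ+ lung cells, against 0.276% of all loci, or between IFNγ+ lung and IL-4+ LN cells, against 3.62%. The list was chosen with earlier results of these data known. The locus signal of Il7r was 56.7 and 74.6 in IL-4+ LN, 125, 139 and 135 in IL-4+ lung, and 91.7 and 117 in IFNγ+ lung cells. It was 1.03 higher on the log2 scale in IL-4+ cells of lung than of LN, with an adjusted p of 0.0258 in the limma fit over genes. The locus signal of Selplg, which encodes the ligand of the selectins, was 164 and 148 in IL-4+ LN, 296, 382 and 402 in IL-4+ lung, and 248 and 257 in IFNγ+ lung cells, and its difference was 1.20 with an adjusted p of 0.0145. Coro1c lies in the same window as Selplg.

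The genes most like each of the 5 in their pattern over the 7 libraries were sought by Pearson correlation of log2 locus signals among 20815 genes with at least 3 regions that shared none with it. For S1pr1 they were AC102285.1 (r = 0.98), Jak1 (r = 0.97) and Icos (r = 0.96), for Ccr7 Psen2, Osm and AC122252.2 (r between 0.9957 and 0.9965), for Klf2 Gm25195, E230001N04Rik and Eno2 (each r = 0.99), for Foxo1 Gm2245, Mir6374 and Prkcq (each r = 0.99), and for Cd69 Gm37294, Dock10 and 4930523C07Rik (each r = 0.99). These are the best of many genes over only 7 libraries that share their depth, spread and normalization, and are given as a description. Among the 5 genes, Cd69 correlated with the others between -0.13 with Klf2 and 0.53 with S1pr1, whereas Ccr7 and Foxo1 had an r of 0.93.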

How the data were processed

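ATAC-seq libraries of 7 sorted CD4+ T cell samples in 3 populations were analysed from 1 table. The authors trimmed adapters, mapped reads to GRCm38/mm10 with Bowtie2 2.3.2, called peaks with MACS2 2.1.1, merged regions across replicates, counted insertions and normalized them with voom in limma 3.38.3. They deposited log2 densities, which go below 0. Sorted values nearly coincide between libraries, as after quantile normalization, a step not given in the sources used here. The shortest region is 401 bp.

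All 113820 regions were fitted here with limma 3.58.1 in R 4.3.3 (lmFit with 1 mean per population, eBayes with trend, Benjamini-Hochberg adjustment within a comparison), without pseudocount or filter. A call took a change of at least 3-fold at an adjusted p below 0.05. The fit was tested on simulated data. Locus signals summed antilog density times region length per gene of GENCODE M21, with 10 kb flanks. Exact permutation tests were two-sided, over 15 locus comparisons, without adjustment. Rebuilt counts are ranks of tied values and lower bounds.

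Named regions were all called regions, each promoter region (within 1 kb of a start, highest mean), and per gene and comparison the region of lowest p. The genes, lists and rules were chosen with earlier results of these data known. Alternatives included pseudocounts, filters, normalizations, a replicate block, GC and spread class terms, array weights, other windows and each library left out. Sequences were read from the RefSeq copy of GRCm38. Promoter sequences of RefSeq matched Klf2 and Foxo1 (2 of 5 genes) and were not printed. A gene of the pathway list and a marker gene are not reported here, for a reason unrelated to their values. Python 3.11.15 was used for tables and figures.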

Additional observations from a re-analysis of the deposited data

How the results depend on the processing

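The call of the Cd69 3′ region between IL-4+ lung and LN cells, 1 region, became 0 with a block for the replicate number, with this block and a GC correction, with pseudocounts of 1 and 5, and with voom on rebuilt counts, and was between 0 and 1 with 1 library left out. With the replicate block its difference was 1.61 with an adjusted p of 0.139. The labels do not say that a replicate number marks a shared animal or batch. Same-numbered libraries of IL-4+ LN and lung cells deviated with r = -0.54 and -0.30, those of IL-4+ LN and IFNγ+ lung cells with 0.06 and those of the lung populations with -0.02 and -0.01; both IL-4+ LN and lung pairs set a narrow against a wide library, so these values do not settle the pairing. With array weights, 4 regions of Ccr7 were called higher and 1 of S1pr1 lower in IL-4+ lung than in IFNγ+ lung cells, where the equal-weight fit called 0; these weights raised the calls over all regions from 123 higher and 441 lower to 3121 and 3440, or from 0.496% to 5.76%.

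In the fit over genes, the spread class covariate called 1 of the 5 loci in each comparison (Cd69, Ccr7 and Ccr7), where it called 16.9%, 4.15% and 14.2% of all loci. With 1 library left out, between 0 and 1 locus was called in IL-4+ lung over LN and in IFNγ+ lung over IL-4+ LN cells. Small differences in locus signal changed sign. Between IFNγ+ lung and IL-4+ LN cells, that of S1pr1 was -0.01 and became 0.197 with 25 kb flanks, 0.018 with rebuilt counts, 0.039 as a mean of log2 densities and 0.14 with the spread class, and lay between -0.104 and 0.077 with 1 library left out. That of Klf2 was -0.19 and lay between -0.412 and 0.022. Between IL-4+ lung and LN cells, that of Klf2 was 0.05 and became -0.049 over the gene body alone and -0.015 with 25 kb flanks, and lay between -0.16 and 0.27 with 1 library left out. That of Ccr7 lay between -0.18 and 0.56. That of Foxo1 was -0.04 and became 0.0073 with rebuilt counts and 0.030 as a mean of log2 densities, and lay between -0.149 and 0.101. The causes were not tested. Depth limits the shortest regions most, some of which held fewer than 10 rebuilt insertions in a library.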
